A study of Mus musculus with 22 samples.

Results

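The nuclear receptors for corticosterone, oestrogen and progesterone and the enzyme that regenerates corticosterone inside cells were followed in the brain of dominant and submissive mice. The genes were taken by name, for their part in steroid signalling, and all 6 were found among the 24421 genes of both count tables. They were Nr3c1, which encodes the glucocorticoid receptor, Nr3c2, which encodes the mineralocorticoid receptor, Hsd11b1, which encodes 11-beta-hydroxysteroid dehydrogenase type 1, Esr1 and Esr2, which encode the alpha and beta oestrogen receptors, and Pgr, which encodes the progesterone receptor.

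Total RNA was sequenced, after removal of ribosomal RNA, from the right brain hemisphere of 22 group-housed C57BL/6JOlaHsd mice (C57B6/J OlaHsd in the sample labels), each library from its own mouse, without any genetic or drug treatment. Social rank had been read from tube tests between cage mates at an age of 10 to 12 weeks, and from each cage 1 mouse ranked dominant and 1 ranked submissive were killed 3 to 4 days later. The groups were 7 dominant males, 7 submissive males, 4 dominant females and 4 submissive females. Males of the same number shared a cage. The male libraries carried the prefix um_endres and the female libraries the prefix jgu_gerber, with cage numbers for females 1 and 2 and the labels Gr1 and Gr2 for females 3 and 4. The study regrouped 8 females of intermediate rank into new groups and tested them again after a week, and whether Gr1 and Gr2 are those groups is not stated. Each of these labels was taken as a cage, which the labels do not state, so counts over 4 female cages rest on that reading. Sex and library prefix therefore cannot be told apart, and ranks were compared only within a sex. The total count per library ran from 12403943 to 15099149 in dominant males (median 14166495), from 12851198 to 15805170 in submissive males (median 14379997), from 15375100 to 16488762 in dominant females and from 14967458 to 16462771 in submissive females.

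Steroid hormones cross the cell membrane and bind receptors that are held ready by chaperones, and the hormone-bound receptors act on transcription together with coregulators. In the rodent brain the mineralocorticoid receptor binds corticosterone with the higher affinity and is abundant in the hippocampus, whereas the glucocorticoid receptor is widespread and is occupied when corticosterone is high. The oestrogen and progesterone receptors are known for their part in reproductive and social behaviour and are concentrated in hypothalamic and limbic nuclei, with a broader cortical presence of the progesterone receptor.

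Some libraries stood apart in their regional markers. The summed level of 8 cerebellar marker genes was 31.5 CPM (counts relative to the library total, scaled with TMM factors) in dominant male 1, against 489 to 918 CPM in the other 13 males and 672 to 1144 CPM in the 8 females. The most abundant of these markers, Car8, ranged from 18.2 to 435 CPM among the males. Submissive female 3 had 16.6 CPM summed over 9 pituitary markers, mostly from Prl at up to 11.9 CPM, against 0.361 to 1.11 CPM in the other females, and Pou1f1 of that list had no count in any female. For each of the 6 genes the rank difference in males is also given without dominant male 1. Positions below are those of the exons listed in the count tables for build mm10, and identifiers are from GENCODE vM21. No exon base of the 6 genes was shared with another gene of the tables.

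The glucocorticoid receptor had the most transcript of the 6 genes per kilobase of exon. Nr3c1 (ENSMUSG00000024431, chromosome 18, 39410545 to 39487245, minus strand of mm10, 6329 exon bases in 8 intervals) had between 3156 and 4383 counts in a library. Among males its level ran from 250.1 to 271 CPM in dominant mice (median 261) and from 247 to 266 CPM in submissive mice (median 259). The ranks overlapped almost entirely, and the dominant mouse had the higher level in 4 of 7 cages. The log2 fold change, dominant minus submissive, was 0.016 ± 0.032 (SE, n = 7 per rank), with a 95% interval from -0.05 to 0.08 and an adjusted p of 1.00 in edgeR's quasi-likelihood test. It was 0.021 without dominant male 1.

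In females Nr3c1 was measured at 277, 263, 273 and 257 CPM in dominant mice 1 to 4 and at 262, 237, 254 and 244 CPM in submissive mice 1 to 4. The dominant mouse was the higher one in 4 of 4 cages and 3 of the 4 dominant mice lay above every submissive mouse, but the ranks overlapped because dominant female 4 lay below submissive female 1. Dominant females averaged 268 ± 9.29 CPM against 249 ± 11.02 CPM (SD, n = 4 each). The log2 fold change was 0.10 ± 0.036 (SE), with a 95% interval from 0.03 to 0.18. After adjustment over all 14865 genes tested the difference did not pass the threshold (edgeR adjusted p = 0.290). An exact permutation test of log2 CPM between the ranks, two-sided, gave p = 0.0571, where the smallest p that 4 against 4 mice allow is 0.02857, among 12 such tests that were not adjusted. Within the cages with cage numbers the log2 CPM difference was 0.12 and within those labelled Gr1 and Gr2 it was 0.090. It was smaller, with a log2 fold change of 0.070, after each library's trend of counts on exon length had been removed.

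The mineralocorticoid receptor gene had lower CPM than Nr3c1 in every mouse. Nr3c2 (ENSMUSG00000031618, chromosome 8, 76902508 to 77243639, plus strand, 4087 exon bases in 9 intervals) ran from 75.9 to 85.8 CPM in dominant males (median 78.9) and from 72.9 to 82.5 CPM in submissive males (median 77.1). The dominant mouse was higher in 5 of 7 cages, with wide overlap of the ranks. The estimated log2 fold change in males was 0.051 ± 0.039 (SE), with a 95% interval from -0.03 to 0.13 and an edgeR adjusted p of 1.00, and it was 0.033 without dominant male 1.

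In females Nr3c2 was at 70.6, 69.4, 74.3 and 71.6 CPM in dominant mice 1 to 4 and at 69.6, 65.9, 67.5 and 70.2 CPM in submissive mice 1 to 4. The dominant mouse was again the higher one in 4 of 4 cages, by small amounts in the cages of females 1 and 4, and dominant female 2 lay among the submissive mice. Its log2 fold change was 0.065 ± 0.039 (SE), with a 95% interval from -0.02 to 0.15 (edgeR adjusted p = 0.605). The exact permutation test gave p = 0.0857.

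Hsd11b1 showed the widest relative scatter between mice of the 5 genes with more than a few counts. The enzyme it encodes turns inactive 11-dehydrocorticosterone back into corticosterone. The gene (ENSMUSG00000016194, chromosome 1, 193221641 to 193264045, minus strand, 1445 exon bases in 8 intervals) ran from 24.4 to 38.15 CPM in dominant males (median 33.7) and from 24.2 to 40.6 CPM in submissive males (median 32.8). The lowest dominant male was number 1, the lowest submissive male was number 4, and the highest of each rank was number 6. The coefficient of variation over the 14 males was 13.98%, against 4.65% from counting alone. The rank means nearly coincided, at 32.5 ± 4.54 and 32.4 ± 4.89 CPM (SD, n = 7 each), and the dominant mouse was higher in 3 of 7 cages. The 95% interval of the log2 fold change, from -0.21 to 0.21 around 0.00031, shows that the scatter left room for a difference of that size (edgeR adjusted p = 1.00). Without dominant male 1 the log2 fold change was 0.059.

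In females Hsd11b1 was at 35.3, 30.04, 32.0 and 26.5 CPM in dominant mice 1 to 4 and at 33.1, 26.0, 34.6 and 30.6 CPM in submissive mice 1 to 4. The ranks overlapped throughout, with the dominant mouse higher in both cages with cage numbers and lower in both labelled Gr1 and Gr2. The log2 CPM difference was 0.15 in the former and -0.16 in the latter, and the pooled log2 fold change was -0.0036 ± 0.084 (SE; edgeR adjusted p = 0.991).

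The oestrogen receptor genes were the least abundant. Esr1 (ENSMUSG00000019768, chromosome 10, 4611989 to 5005633, plus strand, 8765 exon bases in 15 intervals) had 89 to 135 counts in a library. It ran from 6.47 to 8.42 CPM in dominant males (median 7.58) and from 6.13 to 8.45 CPM in submissive males (median 7.52). Its coefficient of variation over the males, 9.46%, was no larger than the 9.69% that counting alone gives. The log2 fold change in males was 0.012 ± 0.082 (SE), with a 95% interval from -0.16 to 0.18 (edgeR adjusted p = 1.00), and -0.0097 without dominant male 1.

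Dominant females 1 to 4 had 7.78, 7.34, 6.60 and 6.73 CPM of Esr1, and submissive females 1 to 4 had 7.03, 7.79, 8.96 and 7.04 CPM. Submissive female 3 was the highest of the females, and it was also the library with the pituitary transcripts. The dominant mouse was higher in 1 of 4 cages. The estimated log2 fold change was -0.11 ± 0.11 (SE), with a 95% interval from -0.33 to 0.11 (edgeR adjusted p = 0.782), and -0.033 without submissive female 3. Within the cages with cage numbers the log2 CPM difference was 0.030 and within Gr1 and Gr2 it was -0.25.

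Esr2 (ENSMUSG00000021055, chromosome 12, 76120419 to 76177259, minus strand, 3362 exon bases in 10 intervals) did not pass the expression filter in either sex. It was read at 6 to 15 counts in each male and at 4 to 9 counts in each female. These counts correspond to 0.471 to 1.07 CPM in males and 0.253 to 0.546 CPM in females, and the ranks overlapped in both sexes. The difference in mean log2 CPM was -0.087 in males (exact permutation p = 0.597), -0.17 without dominant male 1, and -0.095 in females (exact permutation p = 0.657). No difference between ranks was detected at this depth.

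Pgr (ENSMUSG00000031870, chromosome 9, 8899833 to 8968611, plus strand, 6889 exon bases in 8 intervals) had an SD of 5.02 CPM among dominant and 2.62 CPM among submissive males, and of 3.203 CPM among dominant males without number 6, a difference in spread that was not tested. It ran from 32.7 to 47.3 CPM in dominant males (median 42.1) and from 38.3 to 44.8 CPM in submissive males (median 40.4). Dominant male 6 was the lowest of the males, and dominant males 1 and 2 lay above every submissive male. The log2 fold change was 0.044 ± 0.069 (SE), with a 95% interval from -0.10 to 0.19 (edgeR adjusted p = 1.00). It was 0.014 without dominant male 1 and 0.097 without dominant male 6. The level also differed between the males by cage number. It was 43.7 ± 2.56 CPM in the 8 males numbered 1 to 4 (SD). In the 6 males numbered 5 to 7 it was 38.2 ± 3.03 CPM (SD), a difference that was not tested. The cage numbers of the males are consecutive, and their labels mark no boundary between numbers 4 and 5. This cut, also used below, was thus a choice made here and not a known batch.

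Pgr was the least variable of these genes in females, with a coefficient of variation of 3.04% where counting alone gives 4.03%. Dominant females 1 to 4 had 40.03, 40.1, 39.0 and 40.7 CPM and submissive females 1 to 4 had 38.6, 39.0, 37.6 and 37.4 CPM. The dominant mouse was higher in 4 of 4 cages, and only dominant female 3 fell within the submissive range, just below submissive female 2. Its log2 fold change was 0.067 ± 0.045 (SE), with a 95% interval from -0.03 to 0.16 (edgeR adjusted p = 0.656), and the exact permutation test gave p = 0.0571. With the exon length trend removed the log2 fold change was 0.028. Because whole hemispheres were sequenced, fewer cells with a transcript and less transcript per cell cannot be told apart for any of these genes.

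**Figure D1:**
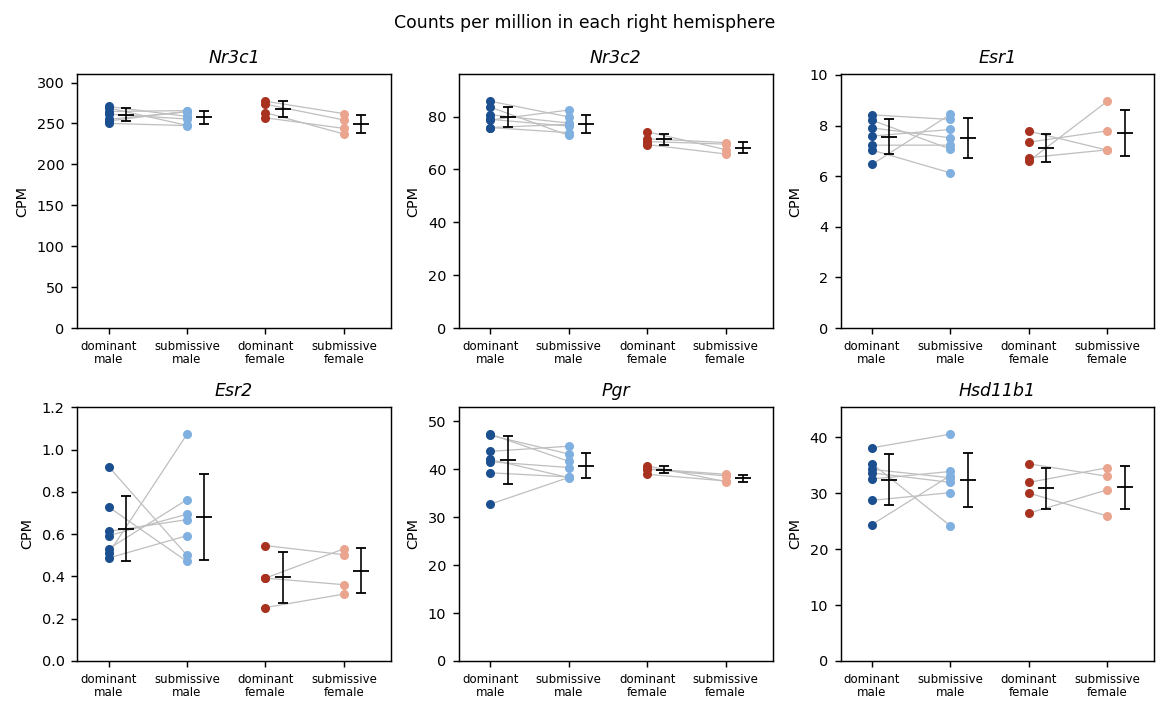
Level of each gene in CPM (vertical axis, from 0) in each mouse, by rank and sex. Points are mice, grey lines join mice of the same cage, and black bars give the mean and SD of the group (n = 7 in each male and n = 4 in each female group). The ranks overlap for every gene in both sexes, and Nr3c1, Nr3c2 and Pgr are higher in the dominant mouse of all 4 female cages. An exact permutation test paired by cage gives p = 0.125 for each of these 3 genes, the smallest p that 4 cages allow. The share of all genes with this pattern was not determined.

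None of the genes was called between ranks. Of the 6 genes 5 passed the expression filter in each sex. In males 0 of 5 had an adjusted p under 0.05 in edgeR, as did 0 of all 14737 genes tested (0%), and DESeq2 called none of them. An unadjusted p under 0.05 was reached by 0 of the 5 genes and by 194 genes overall (1.32%). In females edgeR called 0 of 5, against 14 of 14865 genes (0.0942%), and DESeq2 called 0 of 5. An unadjusted p under 0.05 was reached in females by Nr3c1 alone, 1 of 5 genes, against 1563 genes overall (10.5%). No gene of the 6 had ranks that did not overlap in CPM, whereas among the genes that passed the filter, which Esr2 did not, this held for 1 in males (0.00679%) and for 832 in females (5.60%).

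The rank differences were also compared between the sexes over all 22 mice. Among 15233 genes tested edgeR called 0 (0%) and 505 had an unadjusted p under 0.05 (3.32%), of which 0 were among the 6 genes, and DESeq2 called 0 of the 6. The female minus male rank difference of Nr3c1 was 0.093 ± 0.050 (SE) on the log2 scale, with a 95% interval from -0.01 to 0.20 and an edgeR adjusted p of 0.999. It was 0.035 with the exon length trend removed. With the replicate block it was 0.093, with an unadjusted p under 0.05 and an edgeR adjusted p of 0.719. For Esr1 it was -0.12 ± 0.13, and for Nr3c2, Pgr and Hsd11b1 it was 0.021 ± 0.058, 0.029 ± 0.097 and 0.0022 ± 0.16. The higher Nr3c1 of dominant females was thus not shown to differ from the male value.

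**Figure D2:**
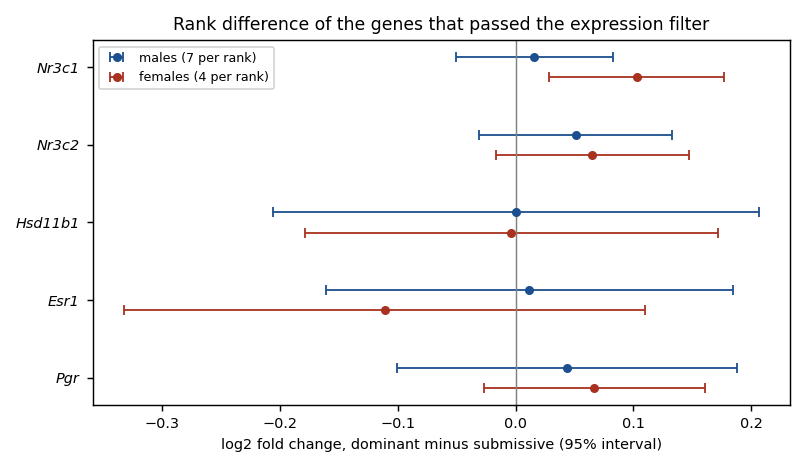
Log2 fold change between dominant and submissive mice (horizontal axis, dominant minus submissive) of the 5 genes that passed the expression filter, in males (n = 7 per rank) and females (n = 4 per rank). Points are edgeR estimates and bars are 95% intervals. The interval of Nr3c1 in females, from 0.03 to 0.18, lies above 0 before adjustment over genes, and the other 9 intervals include 0.

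The order of the levels per kilobase of exon was the same in the 4 groups. In dominant males Nr3c1 had 41.2 ± 1.27, Hsd11b1 22.5 ± 3.14, Nr3c2 19.6 ± 0.916, Pgr 6.09 ± 0.728, Esr1 0.861 ± 0.0790 and Esr2 0.186 ± 0.0455 CPM per kilobase (SD, n = 7). Hsd11b1 and Nr3c2 were neighbours whose ranges overlapped in both male groups, so their order there did not exceed the scatter between mice. In dominant females Hsd11b1 had 21.4 ± 2.55 and Nr3c2 17.5 ± 0.505 CPM per kilobase (SD, n = 4), and in neither female group did their ranges overlap. All other neighbours in the order had separate ranges in every group. The progesterone receptor gene had 7.07 times the level of Esr1 per kilobase in dominant males and 7.15 times in dominant females. Esr1 in turn had 4.63 and 6.89 times the level of Esr2. Esr2 was at 0.118 ± 0.0356 and 0.127 ± 0.0312 CPM per kilobase in dominant and submissive females and at 0.202 ± 0.0602 in submissive males, values from tables scaled separately.

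Some of the genes correlated from mouse to mouse with marker genes of brain regions or cell types. The log2 CPM of each of the 5 filtered genes was correlated with the mean log2 CPM of 12 marker lists, 60 pairs in each sex. After adjustment over the 60 pairs, Pearson's r passed the threshold in 5 pairs in males, and Spearman's rho in 2 of them. No pair with Nr3c1 or Esr1 was among them. In females 0 pairs passed, the lowest adjusted p being 0.287 for r and 0.559 for rho. These tests permuted mice freely, without regard to cage or rank. Both ranks of a sex were pooled, and r within a rank was not determined. In tests added after the data had been seen, mice were permuted only within males 1 to 4 and within males 5 to 7, or whole cages were permuted. Then 0 of the 60 pairs in males passed by r, with lowest adjusted p of 0.0522 and 0.0595. By rho 1 pair passed, Pgr with deep cortex markers within the groups of cages (adjusted p = 0.0078), and 0 passed with whole cages permuted. The p values below are from the free permutations. All correlations used log2 CPM in which the trend of counts on exon length was left. Values of r with that trend removed were not determined.

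Pgr rose with the markers of deep cortex layers. Over the 14 males r was 0.746 (permutation p = 0.0025, adjusted p = 0.0406) and rho was 0.780 (permutation p = 0.0016, adjusted p = 0.0480). The value of r was 0.744 in the 8 males numbered 1 to 4 and 0.920 in the 6 males numbered 5 to 7. It was 0.689 without dominant male 1 and 0.529 (permutation p = 0.0759) without the 2 mice farthest from the median of the markers, so the relation rests in part on those mice. In the 8 females r was 0.805 (exact permutation p = 0.0144, adjusted p = 0.287) and rho was 0.667 (exact permutation p = 0.0831), with r = 0.735 without the 2 farthest mice. The list held Tle4, its most abundant gene, with Fezf2, Foxp2, Bcl11b, Etv1, Rorb, Syt6 and Rprm. None was at 0 in all mice of a sex. Whether these 8 genes mark deep layers alone was not tested, and Rprm was also listed as oestrogen-induced. Their sums were 438, 409, 420 and 431 CPM in dominant females 1 to 4. In submissive females 1 to 4 the sums were 408, 403, 382 and 395 CPM. The sums did not overlap between the ranks, but the mean log2 CPM used for r did, with 5.394 in dominant female 2 below 5.403 and 5.422 in submissive females 1 and 2. Of the 8 markers 7 had a positive log2 fold change, none called. Their part in the Pgr difference was not tested. Both Pgr and the sums were higher on average in dominant females, and r over the 8 females pooled the ranks.

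Pgr fell with the astrocyte markers in males, with r = -0.763 (permutation p = 0.00126, adjusted p = 0.0378) and rho = -0.824 (permutation p = 0.00042, adjusted p = 0.0252). The value of r was -0.756 without the 2 farthest mice, -0.717 without dominant male 1, -0.699 in males 1 to 4 and -0.685 in males 5 to 7. In females r was -0.366 (exact permutation p = 0.379) and rho was -0.405 (exact permutation p = 0.327).

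Hsd11b1 had the opposite pattern in males. With the deep cortex markers r was -0.748 in males (permutation p = 0.00271, adjusted p = 0.0406) and rho was -0.618 (permutation p = 0.0212, adjusted p = 0.151). It was -0.675 and -0.815 within males 1 to 4 and males 5 to 7, -0.634 without dominant male 1 and -0.562 (permutation p = 0.0613) without the 2 farthest mice. With the astrocyte markers r was 0.740 in males (permutation p = 0.00384, adjusted p = 0.0461) and rho was 0.433 (permutation p = 0.125). That relation rested on the 2 farthest mice, since r without them was 0.187. The value of r was 0.733 in males 1 to 4 and 0.105 in males 5 to 7. In females r of Hsd11b1 was -0.261 with the deep cortex markers (exact permutation p = 0.539) and 0.664 with the astrocyte markers (exact permutation p = 0.0709), the latter 0.146 without the 2 farthest mice. With the cerebellar markers r of Hsd11b1 was 0.611 in males (permutation p = 0.0138, adjusted p = 0.0817) and 0.847 in females (exact permutation p = 0.0138, adjusted p = 0.287), with rho of 0.376 and 0.571. Without the 2 farthest mice r was 0.598 in males and 0.214 in females, so the female value rested on those mice. The lowest Hsd11b1 levels in males belonged to dominant male 1 and submissive male 4, whose cerebellar markers summed to 31.5 and 498 CPM. Dominant male 5, with a sum of 489 CPM, had 32.6 CPM of Hsd11b1. The part of the cerebellar markers in the level of Hsd11b1 was not tested.

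Nr3c2 fell with the astrocyte markers in males, with r = -0.784 (permutation p = 0.00078, adjusted p = 0.0378) and rho = -0.714 (permutation p = 0.00525, adjusted p = 0.0649). The value of r was -0.860 in males 1 to 4 but -0.350 in males 5 to 7, and it was -0.674 without dominant male 1 and -0.589 without the 2 farthest mice. In the females r was 0.0449 (exact permutation p = 0.919) and rho was -0.310 (exact permutation p = 0.462), but r was -0.795 without the 2 farthest mice. The astrocyte list, 6 genes led by Aldoc with none at 0 in all mice of a sex, summed to 2925 ± 213 CPM in males ranked dominant against 2998 ± 191 CPM (SD, n = 7 each).

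**Figure D3:**
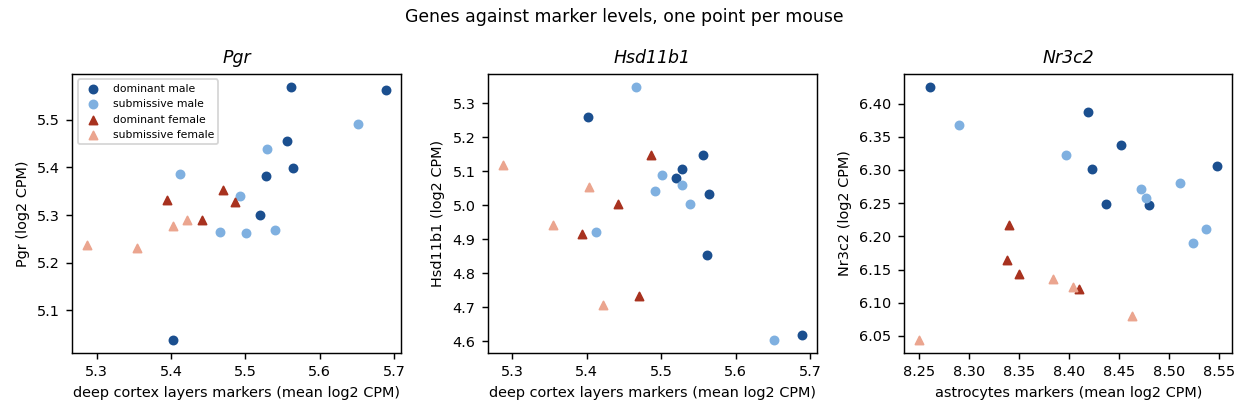
Log2 CPM of Pgr, Hsd11b1 and Nr3c2 (vertical axes) against the mean log2 CPM of a marker list (horizontal axes), deep cortex layers for Pgr and Hsd11b1 and astrocytes for Nr3c2. Each point is a mouse, circles are males and triangles are females. Over the 14 males r is 0.746 for Pgr, -0.748 for Hsd11b1 and -0.784 for Nr3c2.

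Among the 10 pairs of the genes themselves, a comparison added after the data had been seen, Pgr and Hsd11b1 ran against each other in males with r = -0.716 (permutation p = 0.00449, adjusted p = 0.0449) and rho = -0.662 (permutation p = 0.0124, adjusted p = 0.124). With mice permuted within the groups of cages the adjusted p of r was 0.159, and with whole cages permuted it was 0.0417. The value of r was -0.648 and -0.548 within males 1 to 4 and males 5 to 7, -0.648 without dominant male 1 and -0.708 without the 2 farthest mice. In females r was -0.343 (exact permutation p = 0.397) and rho was -0.381 (exact permutation p = 0.360). Pgr and Hsd11b1 differ in exon length, with 6889 and 1445 bases, and the part of the exon length trend in their r was not tested. Between the receptors for corticosterone, Nr3c1 and Nr3c2, r was -0.106 in males (permutation p = 0.718) and rho was -0.0989 (permutation p = 0.740). In females r was 0.687 (exact permutation p = 0.0561, adjusted p = 0.281) and rho was 0.595 (exact permutation p = 0.132), and the difference between the sexes was not tested. The strongest of the 10 pairs in females was Nr3c2 with Esr1, with r = -0.733 (exact permutation p = 0.0423, adjusted p = 0.281) and rho = -0.810 (exact permutation p = 0.0218, adjusted p = 0.218). In males r of that pair was 0.381 (permutation p = 0.179).

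For each gene the most similar genes over the 14 males were listed by Pearson's r of log2 CPM among 13864 others, as a description. Pgr was closest to Tanc2 (r = 0.943), Kat7 (r = 0.942) and Plxna2 (r = 0.941), for which r in the 8 females was 0.793, 0.116 and 0.838. Hsd11b1 was closest to Raly (r = 0.944), Kcnip4 (r = 0.933) and Zfp644 (r = 0.922), with 0.643, 0.803 and 0.787 in females. Nr3c1 was closest to Mcl1 (r = 0.910), Phldb2 (r = 0.894) and Aftph (r = 0.890), with 0.110, 0.728 and 0.353 in females. For Nr3c2 the nearest were Zc3h3 (r = 0.850), Tmem255b (r = 0.811) and Rab4b (r = 0.785), with 0.467, -0.586 and -0.0192 in females. Esr1 was nearest to Pcsk1 (r = 0.797), Cped1 (r = 0.777) and Tmeff2 (r = 0.776), with -0.0311, 0.473 and 0.0845 in females. Without dominant male 1 the r of these 15 genes lay between 0.691 for Rab4b and 0.938 for Kat7. The genes had been picked by r over the same males, so these values are no independent check.

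With all mice of a sex, rank as the only term and the filter applied, edgeR called none of the other genes of these hormone pathways, while some alternatives called 2 coregulators in females. Of 18 coregulators, proteins that receptors recruit to open or close chromatin, 17 had a positive log2 fold change in females. Over all genes 7302 of 14865 were positive. The median was 0.074 for the coregulators against -0.0020 over all genes. An unadjusted p under 0.05 was reached by 7 of them upward and 1 downward, where 956 of all 14865 genes reached it upward. Kmt2d, a histone methyltransferase gene of 19827 exon bases, had 73.5 ± 8.80 CPM in females ranked dominant against 58.0 ± 5.67 CPM (SD, n = 4 each). Its ranks did not overlap, as held for 832 of all genes tested in females (5.60%). Its log2 fold change was 0.34 ± 0.07 (SE; edgeR adjusted p = 0.0747). With the cages as replicate block the edgeR adjusted p of Kmt2d was 0.0159, and that of the acetyltransferase gene Crebbp, named after its values were seen, was 0.0395 at a log2 fold change of 0.21. Both were also called by edgeR without the expression filter, within Gr1 and Gr2, and without dominant female 2. DESeq2 called Crebbp alone, and no gene of the other pathway lists in either sex. After removal of the exon length trend neither was called. An unadjusted p under 0.05 upward was then reached by 5 coregulators, as by 644 of all 14865 genes in that fit. Positive in it were 15 of 18 coregulators, against 7490 of the 14865 genes, and the list median was 0.040. With the trend left in, Hdac3, a component of corepressor complexes, had the only negative value, -0.083 ± 0.038 (edgeR adjusted p = 0.456). In males 4 of 18 coregulators were positive with a median of -0.019, but 9 of 18 with a median of 0.00015 after the length trend was removed. In males 0 had an unadjusted p under 0.05, and 1 did with the replicate block, Crebbp downward at -0.11. Med1, the upward coregulator with the smallest p in males, had a log2 fold change of 0.022 (edgeR adjusted p = 1.00). Its log2 CPM difference went from 0.020 to -0.0090 without dominant male 1, -0.0015 without dominant male 2 and -0.0053 without submissive male 6.

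Genes known to be induced by glucocorticoids were mostly positive in males and mostly negative in females, a contrast between the sexes that was not tested. The log2 fold change of single genes ran from -0.26 to 0.21 in males and from -0.61 to 0.23 in females. In males 14 of 19 tested were positive, against 7165 of all 14737 genes. The median log2 fold change of the list was 0.022 (0.015 to 0.043 with any mouse left out). Of the 19 genes 0 had an unadjusted p under 0.05, and DESeq2 called 0. Positive were 15 of 19 within males 1 to 4 (median 0.061) and 10 of 19 within males 5 to 7 (median 0.014). Sgk1, which encodes a kinase, averaged 77.6 ± 15.98 CPM in males ranked dominant against 70.4 ± 3.297 CPM (SD, n = 7 each), a log2 fold change of 0.14 ± 0.09 (edgeR adjusted p = 1.00). Much of it rested on dominant male 4 at 112 CPM, without which the log2 CPM difference went from 0.12 to 0.027. In females 4 of 19 were positive, against 7302 of all 14865 genes, with a median of -0.067 (-0.11 to -0.034 with any mouse left out, -0.039 with the exon length trend removed), and an unadjusted p under 0.05 was reached by 1 gene upward and 2 downward, where 10.5% of all genes reached it in either direction. The downward count ran from 0 to 6 with any mouse left out, and it was 0 by DESeq2 and 4 with the replicate block. The level of Sgk1 was 70.6 ± 3.34 CPM in females ranked dominant against 81.6 ± 15.8 CPM (SD, n = 4 each), a log2 fold change of -0.21 ± 0.09 (edgeR adjusted p = 0.385). Without submissive female 4, at 104 CPM, the log2 CPM difference went from -0.19 to -0.069. Per1, a clock gene that glucocorticoids also induce, had a log2 fold change of 0.23 ± 0.10 in females (edgeR adjusted p = 0.418), and its log2 CPM difference went from 0.22 to 0.12 without dominant female 4. Plin4, which coats lipid droplets, had -0.26 ± 0.13 in males (edgeR adjusted p = 1.00).

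Of 18 receptor chaperones, all tested, 8 were positive in males (median -0.0057) and 7 in females (median -0.022), and an unadjusted p under 0.05 was reached by Stub1 alone, in females, at -0.12 ± 0.04 (edgeR adjusted p = 0.294). The log2 fold change of Dnajb1 was 0.078 in females (edgeR adjusted p = 0.609), and in males that of Hspa8 was 0.038 and that of Ppp5c -0.064 (edgeR adjusted p = 1.00 each). Oestrogen-induced genes were few, 6 tested of 8, with 3 positive in males and 1 in females. Irs4 had a log2 fold change of -0.39 ± 0.16 in females (edgeR adjusted p = 0.385), Oxtr, the oxytocin receptor gene, 0.015 ± 0.13, and the log2 CPM difference of Irs4 went from -0.43 to -0.20 without dominant female 3. With a mouse left out, the log2 CPM difference of Oxtr in females ran from -0.060 to 0.13. In males Tac1 had 0.099 ± 0.049 and Greb1 -0.20 ± 0.20. The log2 CPM difference of Greb1 went from -0.20 to -0.088 without submissive male 2. Their medians were 0.023 in males and -0.19 in females.

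Of 26 genes of steroid synthesis and metabolism 24 were in the tables and 14 passed the filter, with 5 positive in males and 7 in females, medians of -0.0063 and 0.0052, and 0 with an unadjusted p under 0.05 in either sex by edgeR. With the exon length trend removed 9 were positive in females, with a median of 0.032 and 1 gene in each direction at an unadjusted p under 0.05. Within Gr1 and Gr2 4 were positive, with a median of -0.022 and 1 gene upward at an unadjusted p under 0.05. H6pd, which supplies the cofactor that Hsd11b1 needs to regenerate corticosterone, was at 15.7 ± 0.737 CPM in females ranked dominant against 17.4 ± 1.35 CPM (SD, n = 4 each), a log2 fold change of -0.15 ± 0.07 (edgeR adjusted p = 0.485). Cyp46a1, the cholesterol 24-hydroxylase gene, had 0.073 ± 0.042 in females. In males Cyp7b1 (0.065) and Hsd17b10 (-0.061) had the smallest p in each direction, while the list ran from -0.21 to 0.069. Among 14 other receptors and transport genes tested of 16, 6 were positive in each sex, with medians of -0.0052 in males and -0.0044 in females. Esrrg, an orphan receptor gene related to the oestrogen receptors, had 0.16 ± 0.05 in females (edgeR adjusted p = 0.260), Pgrmc1, a membrane protein gene linked to progesterone, -0.081 ± 0.039 (edgeR adjusted p = 0.473), and in males Gper1 had 0.17 ± 0.16 and Abcb1b -0.17 ± 0.09. The log2 CPM difference of Gper1 went from 0.13 to 0.047 without dominant male 6 and to 0.25 without dominant male 7.

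Regional markers also differed in direction between the female ranks. Of 11 hypothalamic markers that passed the filter 0 had a positive log2 fold change in females, with a median of -0.21, and 3 had an unadjusted p under 0.05, as had 10.5% of all genes in either direction. All 20 listed genes, led by Baiap3 and with none at 0 in all mice of a sex, summed to 123, 135, 86.4 and 144 CPM in dominant females 1 to 4 and to 139, 155, 142 and 136 CPM in submissive females 1 to 4. Dominant female 3 was the lowest, and it also had the lowest Esr1. In females r between Esr1 and the hypothalamic markers was 0.425 (exact permutation p = 0.278) and rho was 0.310 (exact permutation p = 0.462), and that of Nr3c1 was -0.711 (exact permutation p = 0.0379, adjusted p = 0.402) with rho of -0.786 (exact permutation p = 0.0279). The raphe markers, 4 tested and led by Slc18a2, included Slc6a4 and Tph2, which were 2 of the 3 genes that edgeR called lower in dominant females among 14865 tested. They summed to 25.4, 24.5, 11.4 and 16.9 CPM in dominant and 49.2, 41.4, 47.5 and 25.6 CPM in submissive females 1 to 4, and their r with Nr3c2 in females was -0.843 (exact permutation p = 0.00831, adjusted p = 0.287), with rho = -0.810 (exact permutation p = 0.0218). The choroid plexus list, led by Ttr, had 0 of 9 positive in females, with a median of -0.26 and 6 at an unadjusted p under 0.05, and 9 of 9 positive in males, with a median of 0.080 and 2 at an unadjusted p under 0.05, against 1.32% of all genes in males. The part of these markers in the differences of the receptors was not tested. The r of Esr1, Nr3c1 and Nr3c2 with these markers pooled dominant and submissive females.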

How the data were processed

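Right hemisphere RNA of 22 mice was analysed from raw counts per gene that the authors deposited as 2 tables, 1 for each sex. According to the submitters' notes and the methods, the libraries were stranded, and reads were trimmed with cutadapt 1.15, mapped to mm10 with STAR 2.6.0a and counted with featureCounts 1.6.2. The strand setting was not given in the sources used here. Exon length per gene was given in the deposited tables and was used for levels per kilobase.

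Within each sex, counts were fitted with edgeR 4.0.16 in R 4.3.3 with TMM scaling, a quasi-likelihood test and no term but rank. Genes were kept by the edgeR expression filter (count 10, total 15), p was adjusted by Benjamini-Hochberg over all genes tested, and 0.05 was the threshold. All 22 mice were used to fit the rank difference of females minus that of males. Log2 CPM used a prior count of 2. Single genes were also tested by exact permutation over mice, and correlations by 100000 permutations in males and all pairings in females, all two-sided. The code was checked on simulated data. No 2 of the 54 pairs of libraries of a group agreed within counting noise.

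Library names give mice of the same replicate number the same cage number or group label, and the study states that both mice of a cage were sacrificed simultaneously, so the numbers were taken to pair the mice. For females 3 and 4 this rests on reading the group label as a cage. Deviations of paired mice from their group means correlated by 0.177 on average in males (other pairs -0.0294) and by 0.0239 in females (other pairs -0.0080).

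The alternatives were DESeq2 1.42.0, its size factors in edgeR, no expression filter, the replicate block, removal of each library's loess trend on exon length (span 0.3) with and without the block, all mice in one fit, fits within groups of cages (males 1 to 4, males 5 to 7, females 1 and 2, females 3 and 4), and each mouse left out in turn. Correlations without dominant male 1, those among the 6 genes, and permutations of males within groups of cages (100000) or by whole cages (all 5040 orders), and named genes with each mouse left out were chosen after seeing the data. Named pathway genes are those called in either sex and, in each sex and direction, the gene with the smallest p, of which 1 is not reported here. The genes and lists were chosen with earlier results of these data known. The labels do not mark the cut between males 4 and 5, so the groups of male cages are not known batches.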

Additional observations from a re-analysis of the deposited data

Results flagged for a closer look

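For each of the 6 genes in each of the 4 groups, 24 groups of values in all, the gap of the lowest and of the highest mouse to its neighbour was compared with the range of the group by Dixon's rule. In 0 of the 24 did a mouse stand apart, where chance alone would single out about 1 in 20.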

How the results depend on the processing

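None of the genes tested among the 6 was called in either sex under any of the 40 alternatives. Esr2 failed the filter in both sexes and was followed mainly by its log2 CPM difference. In females Nr3c1 kept a positive log2 fold change in all 17, between 0.070 and 0.13, with adjusted p between 0.185 and 0.995. Nr3c2 and Pgr were also positive in all 17. Paired by cage (replicate block), 36 genes were called in females in place of 14, and the block changed no call among the 6 genes. The number called in females was 78 with DESeq2, 84 without the filter, 0 with the length trend removed, 8 with the block and the trend removed, 0 in the fit of all 22 mice, 5 within females 1 and 2 and 120 within females 3 and 4. Without dominant females 1 to 4 it was 7, 77, 1 and 3, and without submissive females 1 to 4 it was 0, 27, 0 and 3, a range of 0 to 77. The call of single genes in females thus depended on the method and on single mice.

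Values near 0 changed sign. Hsd11b1 in males was -0.00041 with DESeq2 size factors, -0.00030 without the filter, -0.0038 with the length trend removed, -0.0035 with the block as well and -0.027 within males 5 to 7. In females it was 0.029 with the length trend removed, 0.028 with the block as well, 0.0030 in the fit of all 22 mice and 0.15 within females 1 and 2. Esr1 was -0.043 within males 1 to 4 and 0.027 within females 1 and 2. Within males 5 to 7 Nr3c1 was -0.0046 and Pgr was -0.0096. With the length trend removed the female minus male difference was -0.0011 for Nr3c2 and -0.036 for Pgr, and that of Nr3c1 fell from 0.093 to 0.035.

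With a mouse left out, Esr1 in males ran from -0.033 to 0.045 and Hsd11b1 from -0.057 to 0.063 in males and from -0.081 to 0.063 in females. Esr2, as log2 CPM difference, ran from -0.17 to 0.012 in males and from -0.23 to 0.049 in females. Medians of gene lists near 0 also changed sign. Those of chaperones and coregulators in males ran from -0.025 to 0.013 and from -0.039 to 0.010. For steroid synthesis and metabolism the range was -0.019 to 0.0021 in males and -0.0051 to 0.036 in females. For other receptors and transport genes it was -0.024 to 0.0067 in males and -0.033 to 0.013 in females.

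Some correlations in males were weaker. Nr3c2 with astrocyte markers had r = -0.350 within males 5 to 7. Pgr with deep cortex markers had r = 0.529 without the 2 farthest mice, and with astrocyte markers -0.699 and -0.685 within males 1 to 4 and 5 to 7. Hsd11b1 with deep cortex markers had r = -0.562 without the 2 farthest mice and -0.675 within males 1 to 4. With astrocyte markers it had 0.187 without the 2 farthest mice and 0.105 within males 5 to 7. With mice permuted within groups of cages, the adjusted p of r was 0.0522 for Nr3c2 with astrocyte markers (r = -0.784) and for Pgr with deep cortex markers (r = 0.746). It was 0.0676 for Pgr with astrocyte markers (r = -0.763) and for Hsd11b1 with deep cortex markers (r = -0.748), and 0.138 for Hsd11b1 with astrocyte markers (r = 0.740). With whole cages permuted it was 0.0699 for Pgr with deep cortex markers and 0.0595 for the other 4 pairs. Thus none of the 5 calls by r held with mice permuted within groups of cages or with whole cages permuted. The reasons were not tested.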
